A study of Arabidopsis thaliana with 12 samples.

Results

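The UDP-glucosyltransferase and glutathione S-transferase genes of Arabidopsis thaliana were described across light, darkness and reillumination. A gene was included if its symbol begins with UGT, GSTU, GSTF, GSTZ, GSTT or GSTL and the platform annotation ties a probe set to it alone. This rule used no measured value and found 60 genes among the 13356 genes with a probe set of their own. The members were, however, chosen with earlier results of these data known. There were 47 UGT and 13 GST genes, and the GST genes comprised 11 of the tau class, GSTF4 of the phi class and GSTL3 of the lambda class. The reference gene table holds 105 genes with such symbols, 58 UGT and 47 GST. For 45 of the 105 the annotation gave no probe set of their own, and they are not analysed here. The annotation did not list 8730 of the 22746 probe sets tested, so some of the 45 may have a probe set that is not listed. The GST genes are the less completely covered family.

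RNA came from whole 14-day-old seedlings of the Col-0 line 35S:HF-RPL18B, whose ribosomal protein L18B carries an amino-terminal His6-FLAG tag under the near-constitutive 35S promoter of Cauliflower Mosaic Virus. All groups share this transgene, and captured ribosomes come from the cells in which that promoter is active. Seedlings were kept in light as a 1 h control, darkened for 1 h from the middle of the light period, or darkened for 1 h and returned to light for 10 min. From 1 clarified extract of each sample, total RNA was taken directly and polysomal RNA was taken from ribosomes bound to anti-FLAG beads, which gave 6 groups of 2 ATH1 arrays, 12 in all. The 2 arrays of each group are, per the labels, from 2 experiments done independently of each other.

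UDP-glucosyltransferases move a sugar from a UDP-sugar to a small molecule, such as a flavonoid, a hormone, a lignin precursor or a foreign compound, and so change its solubility, storage and activity. Glutathione S-transferases bind glutathione and join it to electrophilic compounds, and the plant-specific tau class is known for its induction by herbicides and stress. Many members of both families lie side by side in the genome as tandem copies. The 60 genes included 15 clusters of neighbours of the same family within 3 protein-coding genes of each other, among them GSTU23, GSTU22, GSTU21 and GSTU20, and UGT85A7, UGT85A2, UGT85A5 and UGT85A3. Transcripts of near-identical copies could bind each other's probes, and cross-hybridization was not tested.

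Values are log2 expression of a probe set, and differences are log2 differences ± standard error of the limma fit with n = 2 arrays per group. A gene was called where the limma p, adjusted by Benjamini-Hochberg over all 22746 probe sets, was under 0.05. Because the arrays were made alike in distribution, each difference is relative to the rest of the array. In bulk seedlings, fewer cells of a type and less RNA per cell cannot be told apart. Replicate arrays correlated at r = 0.9925 to 0.9948 across probe sets, and array medians lay between log2 6.05 and 6.19. Of the 60 genes, 22 were at or above the array median on every array, 30 were below it on every array, and 12 of those 30 were below the lower quartile on every array. The 12 were GSTU15, GSTU21, UGT71B6, UGT73C1, UGT73C2, UGT73C7, UGT73D1, UGT76E1, UGT76E12, UGT78D3, UGT84B1 and UGT84B2, so these genes had little signal in which a change could be seen.

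After 1 h of darkness, 6 of the 60 genes were called in total RNA, 2 higher and 4 lower, and all 6 were UGT genes. The share of all probe sets called was 9.46% (4.38% higher and 5.07% lower), so the count for the families was near the background. The median difference was -0.04 over the 60 genes and -0.02 over all probe sets. With the replicate experiment as a block, which the pairing of the arrays allows, 11 genes were called, 2 higher and 9 lower, against 15.8% of all probe sets. Flavonoid-modifying UGT78 genes were among those that fell.

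UGT78D1 (AT1G30530), a flavonol rhamnosyltransferase, read 7.23 and 7.68 in light total RNA and 6.21 and 6.09 in dark total RNA. The groups did not overlap, but this held for each of the 60 calls in this report and so adds no support to a call. The gene fell by 1.31 ± 0.16 on the log2 scale, a 2.48-fold lower level (adjusted p = 0.000282). UGT78D2 (AT5G17050), which adds glucose to flavonols and anthocyanidins at the 3 position of the flavonoid, read 6.79 and 7.0 in light and 6.45 and 6.25 in darkness. It fell by 0.55 ± 0.14 (adjusted p = 0.0253), and the call was lost without dark replicate 2 (adjusted p = 0.185) or light replicate 2 (0.200). The third gene of the class, the flavonol arabinosyltransferase UGT78D3, was below the lower quartile on every array.

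UGT76E11 (AT3G46670), which was below the array median on every array, read 5.43 and 5.75 in light and 4.64 and 4.40 in darkness. It fell by 1.08 ± 0.15 (2.11-fold, adjusted p = 0.000701), the second-largest fall of the families, while its tandem neighbour UGT76E12 stayed below the lower quartile. UGT88A1 (AT3G16520), which had the highest mean of the 60 probe sets at log2 10.76, read 11.04 and 10.95 in light and 10.60 and 10.34 in darkness. Its fall was 0.52 ± 0.12 (adjusted p = 0.0169), lost without dark replicate 2 (0.155), light replicate 1 (0.0967) or light replicate 2 (0.0697).

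Both genes that rose in total RNA lie in classes whose other measured members were not called there. UGT85A5 (AT1G22370) read 6.69 and 6.76 in light and 7.54 and 7.50 in darkness, a rise of 0.80 ± 0.11 (1.74-fold, adjusted p = 0.00078). UGT73B1 (AT4G34138) read 7.16 and 7.07 in light and 8.10 and 7.72 in darkness. It rose by 0.79 ± 0.18 (1.73-fold, adjusted p = 0.0179), and the call was lost without dark replicate 1 (0.108), light replicate 1 (0.0664) or light replicate 2 (0.123). The plot of values by array shows no overlap of the light and dark arrays for either gene, as held for every call.

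**Figure D1:**
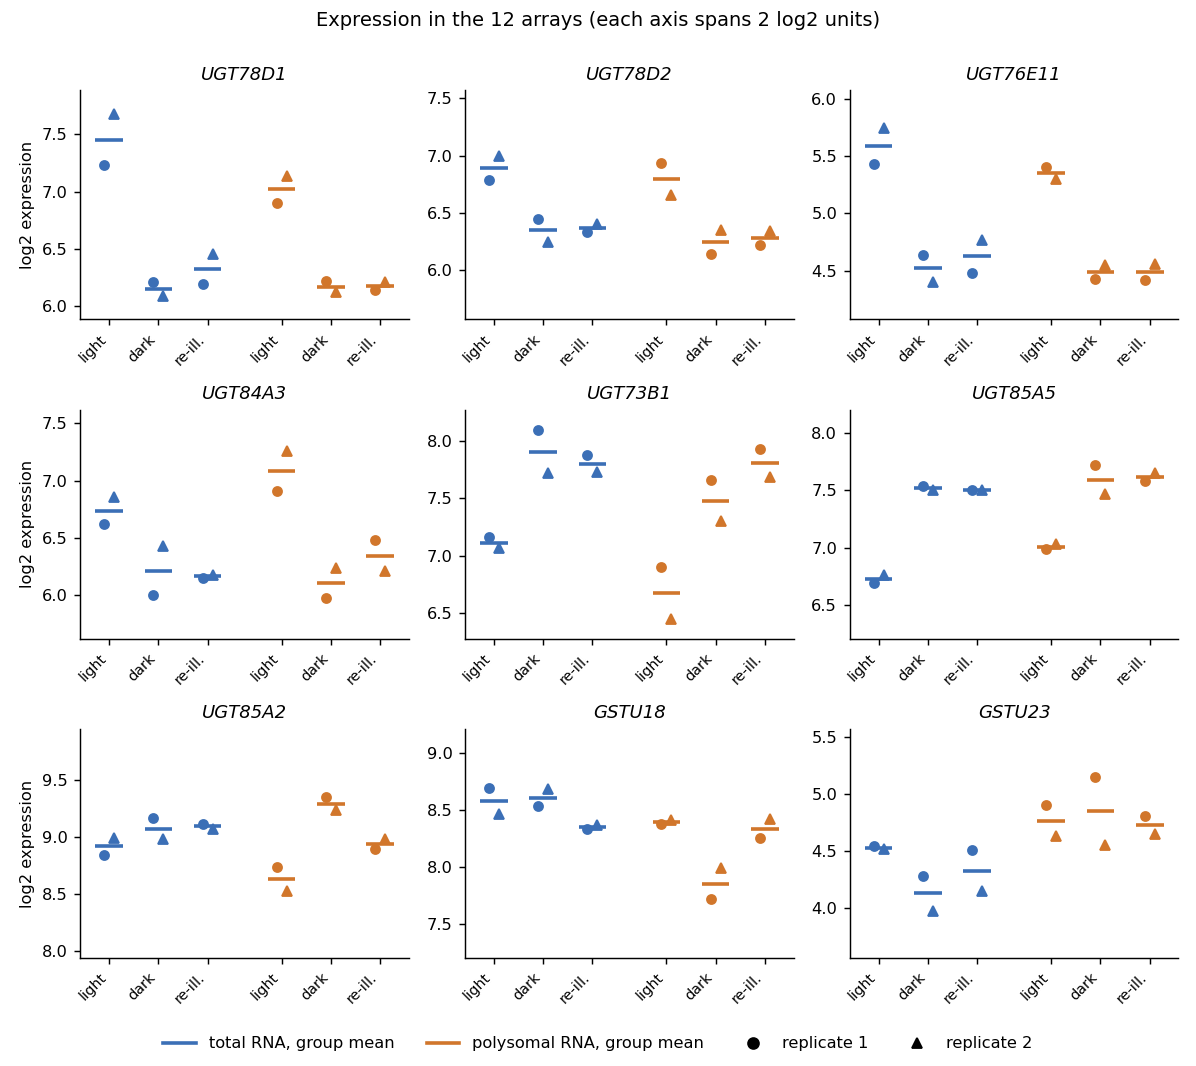
Log2 expression of 9 UGT and GST genes on each array, by condition and RNA pool (circle, replicate 1; triangle, replicate 2; bar, group mean). Each vertical axis spans 2 log2 units. UGT78D1 and UGT76E11 are lower in darkness and reillumination than in light in both pools, and UGT85A5 and UGT73B1 are higher.

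In polysomal RNA, 13 of the 60 genes were called after darkness, 7 higher and 6 lower, of which 11 were UGT and 2 GST genes. The background was 17.2% of all probe sets (8.49% higher and 8.68% lower). With the block 20 genes were called, 13 higher and 7 lower, against 25.2%. The median difference was 0.10 over the 60 genes and -0.02 over all probe sets. The pools were measured on separate arrays but come from the same extracts. In both, 5 of the 60 genes were called in the same direction, where 5.27% of all probe sets were: UGT78D1, UGT78D2 and UGT76E11 lower, and UGT73B1 and UGT85A5 higher.

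UGT78D1 read 6.90 and 7.14 in light and 6.22 and 6.12 in dark polysomal RNA, a fall of 0.85 ± 0.16 (1.80-fold, adjusted p = 0.00292). UGT76E11 read 5.41 and 5.30 in light and 4.43 and 4.55 in darkness, a fall of 0.86 ± 0.15 (adjusted p = 0.0018). UGT78D2 fell by 0.55 ± 0.14 (adjusted p = 0.0148), lost without dark replicate 1 (0.116) or light replicate 1 (0.124). For UGT78D1 and UGT76E11 the light and dark arrays did not overlap in either pool, as held for every call.

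The lowest difference in polysomal RNA belonged to UGT84A3 (AT4G15490), which makes glucose esters of hydroxycinnamates such as sinapate. It read 6.91 and 7.26 in light and 5.98 and 6.24 in darkness, a fall of 0.97 ± 0.17 (1.96-fold, adjusted p = 0.00268). In total RNA it read 6.62 and 6.86 in light and 6.00 and 6.43 in darkness, with a difference of -0.53 (adjusted p = 0.0882, and 0.0211 with the block). The difference between the pools was -0.45 ± 0.25 (interaction adjusted p = 0.401), so the pools were not shown to differ for this gene. Its neighbours UGT84A1 and UGT84A4 were not called.

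UGT72B3 (AT1G01420) read 6.59 and 6.61 in light and 6.16 and 5.83 in darkness, a fall of 0.61 ± 0.13 (adjusted p = 0.00891) that was lost without dark replicate 2 (0.0907) or light replicate 2 (0.0574). GSTU18 (AT1G10360), of the tau class, read 8.38 and 8.41 in light and 7.72 and 7.99 in darkness. It fell by 0.55 ± 0.13 (adjusted p = 0.0119) and was lost without dark replicate 1 (0.109), light replicate 1 (0.0501) or light replicate 2 (0.0725).

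Among the genes that rose in polysomal RNA, UGT73B1 read 6.90 and 6.45 in light and 7.66 and 7.30 in darkness, a rise of 0.81 ± 0.18 (1.75-fold, adjusted p = 0.01). That call was lost without dark replicate 1 (0.0906) or light replicate 2 (0.107). UGT85A5 read 6.99 and 7.03 in light and 7.72 and 7.47 in darkness, a rise of 0.58 ± 0.11 (adjusted p = 0.00342). Its neighbour UGT85A2 (AT1G22360) read 8.74 and 8.53 in light and 9.35 and 9.23 in darkness, a rise of 0.65 ± 0.12 (adjusted p = 0.00277). The other neighbours UGT85A3 and UGT85A7 were not called.

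The remaining rises were smaller against their error. UGT76B1 (AT3G11340), which glucosylates isoleucic acid and salicylate, read 5.4 and 5.23 in light and 6.13 and 5.86 in darkness, a rise of 0.68 ± 0.20 (adjusted p = 0.0341). GSTF4 (AT1G02950) rose by 0.57 ± 0.13 (adjusted p = 0.0101), from 4.97 and 4.85 to 5.47 and 5.48. UGT71C5 (AT1G07240), which glucosylates abscisic acid, rose by 0.53 ± 0.12 (adjusted p = 0.0103), from 7.73 and 7.82 to 8.26 and 8.36. UGT72E1 (AT3G50740), a monolignol glucosyltransferase, rose by 0.53 ± 0.16 (adjusted p = 0.0372), from 10.01 and 9.84 to 10.51 and 10.41. For all 4 genes the dark arrays lay above the light arrays, but the compared arrays did not overlap for any call, so this adds no support. Leaving out any 1 of the 4 arrays compared ended the call for UGT76B1 (adjusted p = 0.0602 to 0.197) and UGT72E1 (0.0729 to 0.209). GSTF4 was lost without dark replicate 2 (0.0579) or light replicate 2 (0.0802), and UGT71C5 without dark replicate 2 (0.0777) or light replicate 1 (0.0682).

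**Figure D2:**
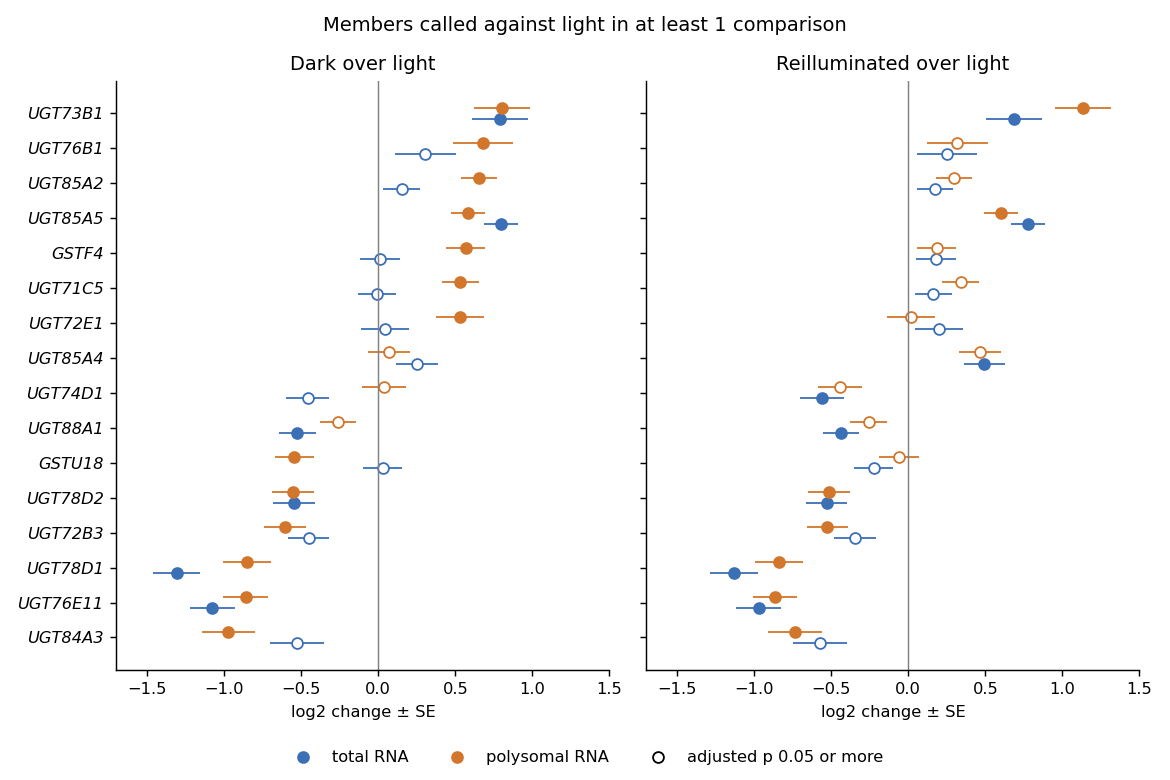
Log2 difference from light, ± standard error, of the 16 genes called in darkness or reillumination against light, in total RNA (blue) and polysomal RNA (orange). Filled points were called at an adjusted p under 0.05 and open points were not. The differences of UGT78D1 run from -1.31 to -0.84 and those of UGT73B1 from 0.69 to 1.13.

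Against darkness, 10 min of light gave no call in total RNA among the 60 genes. The background was 0.0% of all probe sets, and the smallest adjusted p of the 60 genes was 0.998. An unadjusted limma p under 0.05 was found for 1 of the 60 genes and for 980 of all 22746 probe sets. Differences ran from -0.51 for UGT73B4 to 0.58 for UGT71C1. With the block, 0 of the 60 genes and 0.0528% of all probe sets were called.

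In polysomal RNA 2 genes were called after reillumination against darkness, 1 higher and 1 lower, against 7.83% of all probe sets (4.62% higher and 3.2% lower). GSTU18 read 7.72 and 7.99 in darkness and 8.25 and 8.42 after reillumination, a rise of 0.48 ± 0.13 (adjusted p = 0.0406). UGT87A2 (AT2G30140), known for an effect on flowering time, read 7.87 on both dark arrays and 7.47 and 7.41 after reillumination, a fall of 0.43 ± 0.11 (adjusted p = 0.0411, lost with arrays centred on their medians). These values rest on the dark arrays that also enter the comparison of darkness with light, where GSTU18 fell. Leaving out any 1 of the 4 arrays compared ended both calls, with an adjusted p of 0.0598 to 0.244 for GSTU18 and 0.103 to 0.191 for UGT87A2. Of the 8 arrays of other groups, leaving out any 1 of 4 did so for GSTU18 (0.0569 to 0.0585) and any 1 of 2 for UGT87A2 (0.056).

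With the block, 12 genes were called in this comparison, 2 higher and 10 lower, against 15.1% of all probe sets. The genes gained were UGT85A4 higher at 0.40 (block adjusted p = 0.0483) and 9 lower. The lower genes ran from UGT72E1 at -0.51 (block adjusted p = 0.0129) to UGT85A2 at -0.36 (0.0495), and included the glucosinolate glucosyltransferase UGT74B1 at -0.47 (0.0132) and the auxin glucosyltransferase UGT74D1 at -0.48 (0.00742). The others were GSTF4, GSTU22, UGT73B5, UGT76C2 and UGT80B1. All 10 had an adjusted p over 0.05 without the block.

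Against light, the reilluminated seedlings had 8 of the 60 genes called in total RNA, 3 higher and 5 lower, all UGT, with a background of 7.91% (4.07% higher and 3.84% lower). With the block 13 were called, 4 higher and 9 lower, against 13.7%. This comparison shares the light arrays with that of darkness over light, so values are given side by side only. UGT78D1 read 6.19 and 6.46 in reilluminated total RNA, with a difference from light of -1.13 (adjusted p = 0.000888) where darkness gave -1.31. UGT76E11 differed by -0.97 (adjusted p = 0.00158) where darkness gave -1.08. UGT85A5, at 7.50 on both reilluminated arrays, differed by 0.78 (adjusted p = 0.00102) where darkness gave 0.80.

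The other calls in reilluminated total RNA had larger adjusted p-values. UGT74D1 (AT2G31750) read 7.64 and 7.87 in light and 7.13 and 7.26 after reillumination, a fall of 0.56 ± 0.14 (adjusted p = 0.0324, lost with arrays centred on their medians). UGT85A4 (AT1G78270) read 6.50 and 6.96 in light and 7.23 and 7.21 after reillumination, a rise of 0.49 ± 0.13 (adjusted p = 0.046). UGT78D2 fell by 0.53 (adjusted p = 0.0333), UGT88A1 fell by 0.44 (0.0465) and UGT73B1 rose by 0.69 (0.0404). None of these 5 calls held under every omission of 1 array. Any 1 of the 4 arrays compared, left out, ended the calls of UGT74D1 (adjusted p = 0.0518 to 0.247), UGT78D2 (0.0568 to 0.245), UGT73B1 (0.114 to 0.214) and UGT88A1 (0.0947 to 0.275). UGT85A4 was lost without light replicate 1 (0.286) or reilluminated replicate 1 (0.182) or 2 (0.173), and also without each of the 8 arrays of other groups (0.0563 to 0.0648), so its call held in 1 of 12 omissions. UGT88A1 was also lost without 6 of those 8 (0.0561 to 0.0643).

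In polysomal RNA 7 genes were called after reillumination against light, 2 higher and 5 lower, all UGT, with a background of 8.88% (4.78% higher and 4.1% lower). With the block 11 were called, 3 higher and 8 lower, against 15.0%. UGT73B1 read 6.90 and 6.45 in light and 7.93 and 7.69 after reillumination, a rise of 1.13 ± 0.18 (2.19-fold, adjusted p = 0.00241). UGT85A5 rose by 0.60 ± 0.11 (adjusted p = 0.00496). UGT76E11 fell by 0.86 (adjusted p = 0.00321), UGT78D1 by 0.84 (0.00567), UGT84A3 by 0.74 (0.0222), UGT72B3 by 0.53 (0.0308) and UGT78D2 by 0.51 (0.0357). The highest difference of the families and the lowest thus belonged to UGT73B1 and UGT76E11. The call was lost for UGT78D1 without light replicate 2 (0.0644), and for UGT84A3 without light replicate 2 (0.183) or reilluminated replicate 2 (0.158). It was lost for UGT72B3 without any 1 of the 4 arrays (0.117 to 0.144). UGT78D2 lost it without light replicate 1 (0.240), reilluminated replicate 1 (0.175) or 2 (0.0921), or either of 2 arrays of other groups (0.0512).

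Polysomal was then set against total RNA within each condition, as a measure of how far a transcript was carried by captured ribosomes relative to the rest. In light 10 of the 60 genes were called, 3 higher and 7 lower in polysomal RNA, against 32.3% of all probe sets (14.6% higher and 17.6% lower). In darkness 9 were called, 6 higher and 3 lower, against 23.5% (11.6% higher and 11.8% lower). After reillumination 5 were called, 2 higher and 3 lower, against 27.4% (12.7% higher and 14.6% lower). The share of the 60 genes called was below the background in all 3 conditions. The UGT genes gave 6, 4 and 2 calls of 47 (12.8%, 8.5% and 4.3%), and the GST genes 4, 5 and 3 of 13 (30.8%, 38.5% and 23.1%). The GST share was above the background in darkness and below it in light and after reillumination. It rests on 13 genes, and its distance from the background was not tested. With the block the counts were 17, 15 and 11 against 40.3%, 32.1% and 35.7%.

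The tau class, the largest class with 11 genes, had 4 called in light, 4 in darkness and 3 after reillumination (36.4%, 36.4% and 27.3%), against the 32.3%, 23.5% and 27.4% above. GSTU27 (AT3G43800) was higher in polysomal RNA in every condition, by 0.60 ± 0.13 in light (adjusted p = 0.00512), 0.86 in darkness (0.000928) and 0.67 after reillumination (0.00356). Its total RNA read 8.84 and 8.84, 8.84 and 9.07, and 8.82 and 9.06 in light, darkness and reillumination, and its polysomal RNA 9.39 and 9.50, 9.78 and 9.84, and 9.46 and 9.76. GSTU28 (AT1G53680) was lower in every condition, by -0.91 in light (adjusted p = 0.000335), -0.66 in darkness (0.00358) and -0.83 after reillumination (0.000857). Its total RNA ran from 5.51 to 5.84 and its polysomal RNA from 4.75 to 5.05.

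GSTU16 (AT1G59700) was higher in polysomal RNA by 0.58 in light (adjusted p = 0.00571, and 0.054 without light total replicate 1) and by 0.57 after reillumination (0.00756, and 0.0776 without reilluminated polysomal replicate 2). GSTU26 (AT1G17190), a tandem neighbour of GSTU25, was lower in light by -0.64 (adjusted p = 0.0224). Its total RNA read 6.95 and 7.57 and its polysomal RNA 6.64 and 6.61 in light. The call was lost without light polysomal replicate 1 (0.0809) or 2 (0.0938) or light total replicate 2 (0.217).

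In darkness GSTU18 was lower in polysomal RNA by -0.75 (adjusted p = 0.00145), at 8.53 and 8.68 on total arrays and 7.72 and 7.99 on polysomal arrays. GSTF4 was higher by 0.75 (adjusted p = 0.00158), at 4.89 and 4.57 on total arrays and 5.47 and 5.48 on polysomal arrays. Both calls were kept when each array was left out in turn.

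Of the UGT genes, UGT71C1 (AT2G29750) had the lowest polysomal over total value. It read 6.64 and 6.02 on total arrays and 5.30 and 4.90 on polysomal arrays after reillumination, a difference of -1.23 ± 0.25 (2.34-fold lower, adjusted p = 0.00373). In light it differed by -0.82 (adjusted p = 0.026), lost without light polysomal replicate 2 (0.198) or light total replicate 1 (0.0901) or 2 (0.105). In darkness its difference was -0.59 (adjusted p = 0.115, and 0.00614 with the block). UGT76C2 (AT5G05860), a cytokinin N-glucosyltransferase, was lower in light by -0.40 (adjusted p = 0.0364) and after reillumination by -0.44 (0.0267). It was lost without any 1 of the 4 light arrays (0.101 to 0.139), and without reilluminated polysomal replicate 1 (0.052) or 2 (0.149) or reilluminated total replicate 2 (0.166).

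The other UGT calls were made in 1 condition each. In light UGT76B1 was lower by -0.56 (adjusted p = 0.0466), UGT78D1 by -0.44 (0.0491) and UGT71C5 by -0.34 (0.0492), and UGT72B3 was higher by 0.43 (0.0298). Leaving out any 1 of the 4 light arrays ended the calls of UGT76B1 (0.0888 to 0.206) and UGT72B3 (0.0582 to 0.159). UGT78D1 was lost without light polysomal replicate 1 (0.265) or 2 (0.0573) or light total replicate 2 (0.371), and UGT71C5 without light polysomal replicate 1 (0.200) or 2 (0.0945) or light total replicate 2 (0.338). UGT76B1, UGT78D1, UGT71C5, UGT76C2 and GSTU26 were not called in light after centring the arrays on their medians, nor were UGT72E3 in darkness and UGT76C2 after reillumination. UGT78D1 and UGT71C5 were also lost with a trended and robust prior. Without arrays of other groups, UGT71C5 was lost in 8 of 8 omissions (0.0515 to 0.0647), UGT78D1 in 6 (0.0562 to 0.0612) and UGT76B1 in 4 (0.051 to 0.0589), so the call of UGT71C5 held in 1 of 12 omissions.

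In darkness UGT72E1 was higher in polysomal RNA by 0.61 (adjusted p = 0.0146), UGT80B1 (AT1G43620), a sterol glucosyltransferase, by 0.53 (0.00704) and UGT87A2 by 0.38 (0.0322). UGT72E3 (AT5G26310), like UGT72E1 a monolignol glucosyltransferase, was lower by -0.54 (0.0319). The polysomal RNA of these 2 genes thus lay on opposite sides of their total RNA in darkness, and the 2 genes were not tested against each other. UGT72E2 differed by -0.10 and 0.06 in replicates 1 and 2 and was not called. The call of UGT72E1 was lost without dark polysomal replicate 1 (0.0869) or dark total replicate 2 (0.115), and that of UGT72E3 without dark polysomal replicate 2 (0.241) or dark total replicate 1 (0.0832) or 2 (0.125). UGT80B1 was lost without dark polysomal replicate 1 (0.0681) or dark total replicate 2 (0.0565), and UGT87A2 without any 1 of the 4 dark arrays (0.0815 to 0.129).

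Markers of organs also differed between the pools. Most symbols of the root marker list matched no gene with a probe set of its own. The 2 root markers measured, the root-hair expansins EXPA7 and EXPA18, were called lower in polysomal RNA in all 3 conditions. Their summed level was log2 6.42 to 7.13 on total and 5.53 to 5.79 on polysomal arrays. Neither was called between conditions. Of 6 green tissue markers, 4 in light, 5 in darkness and 3 after reillumination were called lower in polysomal RNA. Of all probe sets, 17.6%, 11.8% and 14.6% were called lower there. No green tissue marker was called higher, though the highest differences were 0.16, 0.28 and 0.29. The summed level of the 6 was 15.15 to 15.41 on total and 14.65 to 15.10 on polysomal arrays. In polysomal RNA, 2 of the 6 were called lower in darkness than in light, against 8.68% of all probe sets. The summed level of the 6 was 14.65 to 14.75 in darkness and 14.95 to 15.10 in light. After reillumination, 1 was called higher than in darkness (4.62% of all probe sets) and 1 lower than in light (4.1%). The part of these markers in the differences above was not tested.

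**Figure D3:**
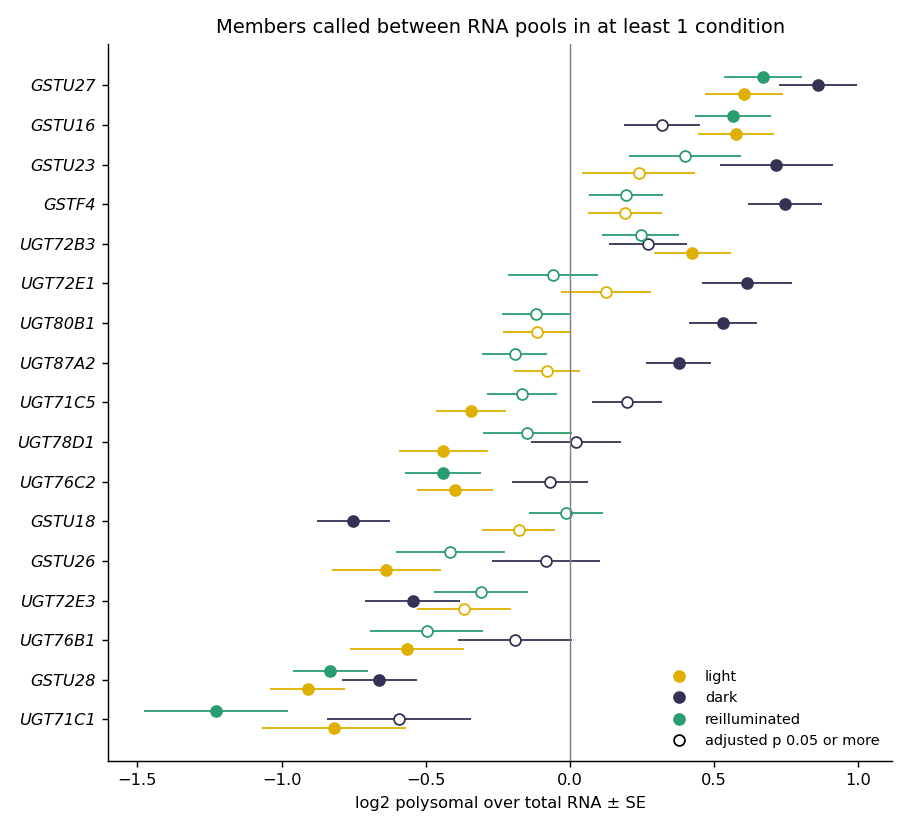
Log2 difference of polysomal over total RNA, ± standard error, in light, darkness and reillumination for the 17 genes called in at least 1 condition. Filled points were called at an adjusted p under 0.05 and open points were not. GSTU27 lies at 0.60 to 0.86 and GSTU28 at -0.91 to -0.66.

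Whether the polysomal over total value itself changed was tested as an interaction. From light to darkness none of the 60 genes was called, and the background was 1.09% (0.334% higher and 0.752% lower). An unadjusted limma p under 0.05 was found for 10 of the 60 genes and for 3888 of all 22746 probe sets. From darkness to reillumination none was called, and the background was 0.994% (0.849% higher and 0.145% lower). Here 6 of the 60 genes and 3218 of all probe sets had an unadjusted p under 0.05. Between reillumination and light none was called, and the background was 0.0%. In that contrast 0 of the 60 genes and 621 of all probe sets had an unadjusted p under 0.05. In this fit, a gene called in 1 pool or condition and not in another was therefore not shown to differ between them.

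With the block, 2 genes were called from light to darkness, against 7.53% of all probe sets. UGT74B1 changed by 0.57 (adjusted p = 0.213, block adjusted p = 0.0478) and UGT80B1 by 0.65 (0.0786, block 0.03). From darkness to reillumination 3 were called, against 4.77%. GSTU18 changed by 0.74 (adjusted p = 0.0835, block 0.0254), UGT72E1 by -0.67 (0.186, block 0.0457) and UGT80B1 by -0.65 (0.098, block 0.0379). UGT80B1 read 6.99 and 7.04, 6.78 and 6.59, and 6.99 and 6.87 in total RNA of light, darkness and reillumination, and 6.87 and 6.93, 7.31 and 7.11, and 6.73 and 6.90 in polysomal RNA. Its dark arrays were the lowest of the total arrays and the highest of the polysomal arrays. Both contrasts use the same dark arrays.

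**Figure D4:**
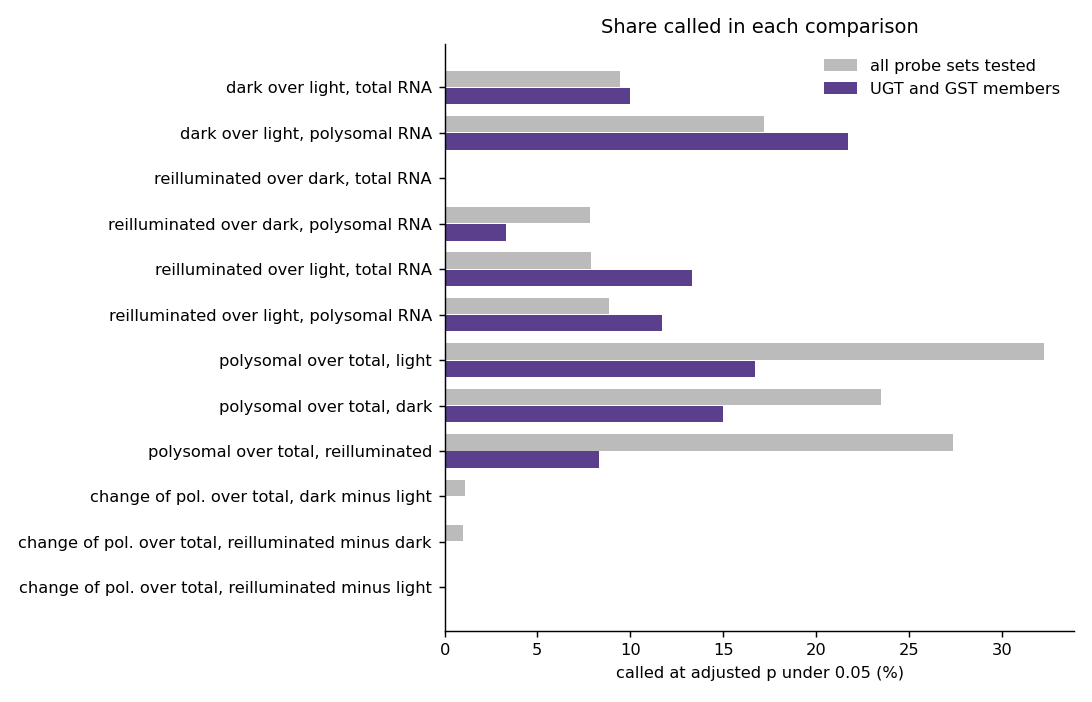
Share, in percent, of the 60 UGT and GST genes and of all 22746 probe sets called in each of the 12 comparisons at an adjusted p under 0.05. The shares are 9.46% and 17.2% of all probe sets for darkness over light in total and polysomal RNA, and in the polysomal over total comparisons the bars of the families are the shorter ones.

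GSTU23 (AT1G78320), a tau-class gene at the end of its tandem cluster, had low signal. In total RNA it read 4.54 and 4.52 in light, 4.28 and 3.98 in darkness and 4.51 and 4.15 after reillumination. In polysomal RNA it read 4.90 and 4.63, 5.15 and 4.55, and 4.81 and 4.65. The lowest polysomal value, 4.55 in darkness, lay next to the highest total value, 4.54 in light. The difference of polysomal over total RNA was 0.72 ± 0.20 in darkness (adjusted p = 0.0198), 0.24 in light (0.403) and 0.40 after reillumination (0.161, and 0.0226 with the block). The dark value was lost without dark polysomal replicate 1 (0.186) or dark total replicate 2 (0.129).

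Between conditions GSTU23 was not called. Darkness over light gave -0.40 in total RNA (adjusted p = 0.279, and 0.0476 with the block) and 0.08 in polysomal RNA (0.846). Reillumination over darkness gave 0.19 (0.998) and -0.12 (0.798), and reillumination over light -0.20 (0.687) and -0.04 (0.947). The polysomal over total value changed by 0.48 from light to darkness (0.426) and by -0.32 from darkness to reillumination (0.7), both with a standard error of 0.28.

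GSTU23 was 0.02 to 0.60 higher in replicate 1 than in replicate 2 across the 6 groups, and its neighbour GSTU21 differed from -0.21 to 0.17. GSTU22 (AT1G78340) read 7.99 and 6.77 in light total, 7.79 and 6.46 in dark total and 7.69 and 6.47 in reilluminated total RNA, replicate 1 first. In polysomal RNA it read 7.47 and 6.21, 7.66 and 6.10, and 7.19 and 5.74. Replicate 1 exceeded replicate 2 by 1.21 to 1.57 in all 6 groups. GSTU22 was the 1 gene of 60 (1.67%) whose replicates differed by at least 0.5 one way in all 6 groups, against 0.33% of all probe sets, a limit chosen after the values were seen.

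GSTU20 (AT1G78370), known to bind the jasmonate-conjugating enzyme JAR1, was 0.28 to 0.71 higher in replicate 1. GSTU25 (AT1G17180), which can conjugate glutathione to trinitrotoluene, was 0.23 to 2.01 higher in replicate 1, with 7.58 and 5.57 in reilluminated total RNA. Its neighbour GSTU26 differed from -0.63 to 0.37. In all, 11 of the 60 genes (18.3%) had their replicates in 1 order in all 6 groups, against 15.4% of all probe sets. Per the labels the replicates are separate experiments, and what differed between them is not given.

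This spread set the error of these genes. For GSTU22 the standard error of a difference was 0.69 without and 0.11 with the block, and for GSTU20 0.28 and 0.11. GSTU22 was lower in polysomal than total RNA by -0.54 in light (adjusted p = 0.613, block adjusted p = 0.00145) and -0.62 after reillumination (0.578, block 0.000611). GSTU20 was higher in polysomal RNA by 0.33 in light (0.412, block 0.0293), 0.61 in darkness (0.144, block 0.000791) and 0.46 after reillumination (0.266, block 0.00535). For GSTU25 the block left a standard error of 0.31, and it was not called in any of the 12 comparisons with or without it.

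**Figure D5:**
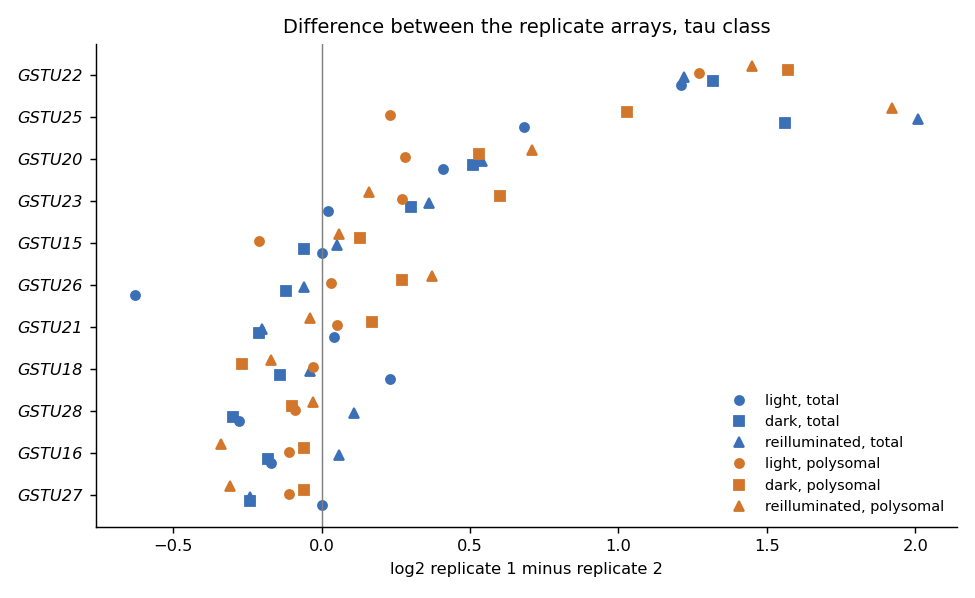
Replicate 1 minus replicate 2, in log2 units, of the 11 tau-class genes in each of the 6 groups. GSTU22 lies between 1.21 and 1.57 and GSTU25 between 0.23 and 2.01, and GSTU27 between -0.31 and 0.00.

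Genes around these families in metabolism were counted from lists by symbol. Except for the beta-glucosidases, most symbols of these lists matched no gene with a probe set of its own. The few genes measured do not stand for their pathways. Beta-glucosidases can remove the glucose that UDP-glucosyltransferases add, and 20 were measured. After darkness 1 fell in total RNA, BGLU44 by 0.73 (adjusted p = 0.00442), and 2 rose in polysomal RNA, BGLU46 by 0.90 ± 0.16 (0.0023) and BGLU33 by 0.56 (0.00616). Of all probe sets, 5.07% were called lower in total RNA and 8.49% higher in polysomal RNA, so these counts were near the background. Reillumination over darkness gave 1 call, in polysomal RNA, where BGLU33 fell by 0.45 (0.0357), and reillumination over light gave 1, in total RNA, where BGLU44 fell by 0.75. The shares of all probe sets called lower there were 3.2% and 3.84%, so these counts too were near the background. In polysomal over total RNA 8, 1 and 5 of the 20 were lower in light, darkness and reillumination, where 17.6%, 11.8% and 14.6% of all probe sets were, and 0 were higher.

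AOR, an alkenal/one oxidoreductase that removes reactive carbonyls, was 1 of 2 measured genes of the xenobiotic list. It fell after darkness by 0.95 in total (adjusted p = 0.00207) and 0.91 in polysomal RNA (0.00156). The other, AER, differed by 0.26 (0.483) and 0.18 (0.574) and was not called. The plastid glutathione reductase gene GR fell after darkness by 0.50 in total RNA (0.0384), where 5.07% of all probe sets were called lower. GR and the cytosolic GR1 were both lower in polysomal RNA in light, by -0.50 and -0.44 (17.6% of all probe sets). After reillumination 1 of the 2 was called lower in polysomal than total RNA (14.6%). Against light, 1 of the 2 was called lower in reilluminated total RNA (3.84%). Only 3 genes were matched for flavonoid and phenylpropanoid synthesis, and only USP for UDP-sugar supply. They were not called in any comparison, which says nothing of the unmatched genes of those lists. One of those 3, matched by the symbol CHI, is listed by the reference as a chitinase locus.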

How the data were processed

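The authors deposited log2 expression per probe set of 12 Affymetrix ATH1 arrays, made with RMA and affy per the submitters' processing notes. RMA corrects background, equalizes array distributions and summarizes probes. Tool versions and the build were not given in the sources used here. Coordinates are left out. Of 22810 probe sets, 64 controls were set aside and 22746 tested. Platform annotation tied 13513 to 1 gene, 503 to several and did not list 8730, and 13436 of the 13513 matched a RefSeq gene table of assembly TAIR10.1. Each of the 60 genes had 1 plain probe set.

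The means of the 6 groups were fitted over all 12 arrays by limma (version 3.58.1, under R 4.3.3) using empirical Bayes moderation (6 residual and 5.48 prior degrees of freedom), two-sided tests and Benjamini-Hochberg adjustment over all 22746 probe sets. The fit was tested on simulated data. The median standard error of the 60 genes was 0.134 for a difference and 0.19 for an interaction. The number of arrays limits the precision.

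Members and lists were chosen with earlier results of these data known. Genes were named where called. GSTU23 was named throughout, and genes not called were given as examples, as neighbours in the genome, where called with the block, or, for GSTU20, GSTU22 and GSTU25, after their values were seen. Alternatives were the replicate block, median centring, a filter on low values, a trended and robust prior, and each array left out. Choosing probe sets by the highest mean could change nothing, since no gene had more than 1. The replicate numbers pair the arrays: per the labels they mark 2 independent experiments, total and polysomal RNA came from 1 extract, and deviations of same-numbered arrays correlated at 0.2905 to 0.5095 over 15 pairs of groups. Plots used Python 3.11.15 with matplotlib 3.10.9.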

Additional observations from a re-analysis of the deposited data

How the results depend on the processing

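No call of a named gene changed sign under any alternative listed here. With the replicate block, genes called numbered 11 and 20 for darkness over light in total and polysomal RNA, 12 for reillumination over darkness in polysomal RNA, 13 and 11 for reillumination over light in total and polysomal RNA, 17, 15 and 11 for polysomal over total in light, darkness and reillumination, and 2 and 3 for the interactions of darkness with light and of reillumination with darkness. The block lost 0 calls. With arrays centred on their medians, 1 was called for reillumination over darkness in polysomal RNA and 6 for polysomal over total in light. The filter on low values kept 26 of the 60 genes and gave more calls for reillumination over darkness in polysomal RNA (6) and for both of those interactions (1 each), and fewer for polysomal over total in darkness (5) and reillumination (3). Leaving out 1 array at a time gave 3 to 7 and 7 to 14 calls for darkness over light in total and polysomal RNA, 0 to 5 for reillumination over darkness in polysomal RNA, 3 to 9 and 4 to 8 for reillumination over light, 3 to 9, 5 to 9 and 3 to 6 for polysomal over total in light, darkness and reillumination, and 0 for each interaction and for reillumination over darkness in total RNA. For centring, the filter and the omissions, the share of all probe sets called is not set beside these counts. The counts therefore cannot tell a shift of the families from a shift of the whole array. The filter kept 11373 probe sets, so its counts cannot be read against the shares of all probe sets given above. Of 60 calls, 23 held in all 12 omissions. The cause of these shifts was not tested, beyond the fewer arrays that an omission leaves and the fewer genes and tests under the filter. Signal limits the 12 genes below the lower quartile.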

Other observations

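The array has 3 probe sets annotated to a UGT gene together with another gene, and these entered no count above. The probe set shared by UGT89B1 and AT1G73885 read 8.41 and 8.60 in light, 7.74 and 7.82 in dark and 8.22 and 8.49 in reilluminated polysomal RNA. It fell by 0.73 ± 0.13 in darkness (limma adjusted p = 0.00203) and rose by 0.57 ± 0.13 from darkness to reillumination (0.0181), both against the same dark arrays. In total RNA it read 8.06 to 8.35, with a difference of -0.13 in darkness (0.645), and the interactions were not called (0.11 and 0.165). Which gene these signals come from cannot be told apart.

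The probe set shared by UGT73B2 and UGT73B3 was not called in any comparison. Its replicate 1 was higher than replicate 2 in all 6 groups, with 8.66 and 7.77 in dark polysomal RNA. The probe set shared by UGT71D1 and AT2G29710 was called once, 0.45 higher in polysomal than total RNA in darkness (adjusted p = 0.0239).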
